A study of Rattus norvegicus with 18 samples.

Results

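The levels of 28268 full-length transcript isoforms in whole rat hippocampus were set beside those in dissected layers of CA1, a hippocampal field of pyramidal neurons. The isoforms described are those whose level in both hippocampus libraries lay outside the range of all 4 CA1 libraries. They numbered 4800 of the 22289 isoforms whose mean reached 1 TPM in hippocampus or in CA1. TPM is a unit that gives the share of a library's transcripts that 1 isoform takes. All tissue came from untreated Sprague Dawley rats of 4 weeks of age. The paper's methods name male animals for the hippocampal slices and give no sex for the whole brains. The hippocampus libraries were made from hippocampus samples, which those methods describe as slices (n = 2). The somata layer and the neuropil layer of CA1 were cut by hand from such slices (n = 2 for each). Whole brain lysate separated into ribosome-free RNA, monosomes and polysomes (n = 2 for each) served as a further readout that the choice of isoforms did not use. The paper's methods describe total RNA libraries for these fractions, from lysate cleared of nuclei, and mRNA libraries for hippocampus RNA. Nothing in the sample descriptions says that replicates came from separate animals, so the p-values below measure the spread between these libraries, which may be technical.

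The hippocampus holds the dentate gyrus with its granule cells, the fields CA3 and CA2, and CA1. Granule cell axons, the mossy fibres, end on CA3 pyramidal cells, whose axons in turn reach CA1. In CA1 the somata layer is packed with pyramidal cell bodies, while dendrites and axons make up most of the neuropil, together with glia, vessels and interneurons. Whole hippocampus therefore contains CA1 along with the other fields. Fewer cells of a type and less RNA per cell cannot be told apart in such bulk samples. The TPM come from an algorithm that divides reads among isoforms sharing sequence, so 1 isoform can take reads that belong to another of the same gene. A value of 0 is an estimate, written here as listed at 0.

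The hippocampus table and the CA1 table were made separately, so tissue and table cannot be told apart. No test was run between them. An exact permutation test of 2 libraries against 4 could not go below p = 0.133 (two-sided). TPM keep no read counts, and the depth behind each value is unknown. Across the 22289 isoforms, Pearson's r of log2(TPM + 1) was 0.829 for the pair of hippocampus libraries, 0.861 for somata and 0.798 for neuropil. Hippocampus replicate 2 correlated less with the CA1 libraries (r from 0.715 to 0.757) than replicate 1 did (0.763 to 0.807). These correlations are across isoforms of the same libraries and are given as a description. The median difference from each single CA1 library was 0 on the log2(TPM + 1) scale for hippocampus replicate 1 and between 0.09 and 0.13 for replicate 2.

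Of the 22289 isoforms, 2963 (13.3%) were higher in both hippocampus libraries than in all 4 CA1 libraries, and 1837 (8.24%) were lower in both. The other 17489 (78.5%) overlapped in range. These shares come from the rule itself and carry no test. With 6 libraries in random order and no ties, the rule would set a share of 0.133 outside. That is for higher and lower together, beside the 21.5% found here. Part of these isoforms can thus lie outside by order alone. The median difference on the log2(TPM + 1) scale, hippocampus mean minus CA1 mean, was 0.12 over all isoforms compared, 1.19 over the higher ones and −1.15 over the lower ones. The margin, which is the gap on that scale between the nearest hippocampus and the nearest CA1 library, was often small. It was under 0.1 in 705 of the higher and 367 of the lower isoforms. It reached at least 1, a gap of 1 log2 unit, in 587 higher and 408 lower isoforms. Without hippocampus replicate 1 the counts were 7579 higher and 3219 lower of 22103, and without replicate 2 they were 4687 and 3714 of 21738. A lone hippocampus library passes the rule more easily, as random order then sets a larger share outside than 0.133. These larger counts thus cannot be read as more shifts. An isoform under 1 TPM in one table entered only through the other, where it was high. Where the mean had to reach 1 TPM in both tables, 2354 higher and 1516 lower isoforms were left of 18028.

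**Figure D1:**
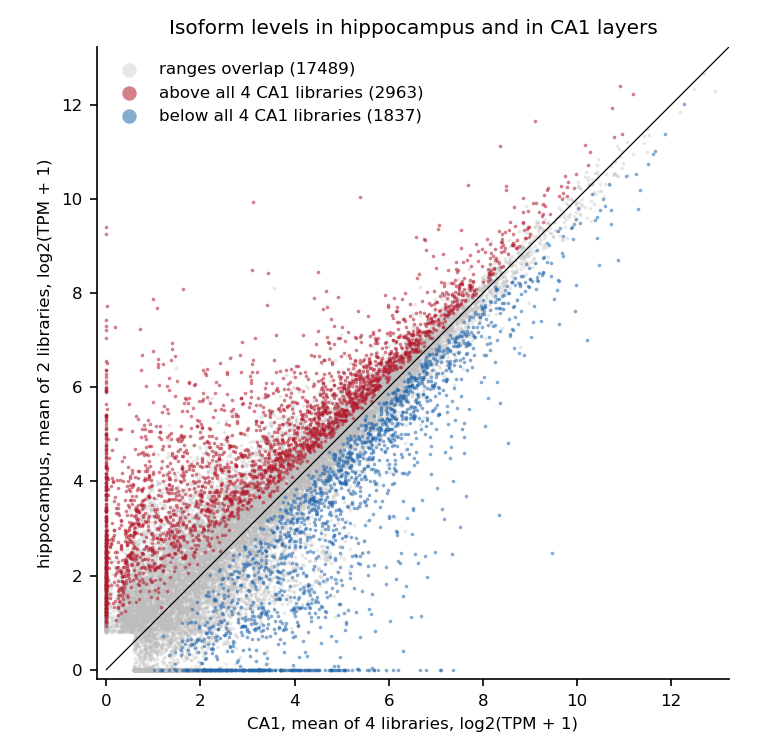
Mean level of each of the 22289 isoforms in the 4 CA1 libraries (x axis) and in the 2 hippocampus libraries (y axis), both in log2(TPM + 1), with a line where they are equal. Red points (2963) lie above and blue points (1837) below all 4 CA1 libraries, grey points (17489) overlap, and both coloured groups run along the line at every level, with a column of red points at 0 in CA1 and a row of blue points at 0 in hippocampus.

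The isoforms outside the range took a large part of each library. The higher isoforms together held 23.8% and 24.2% of the TPM in the hippocampus libraries, 13.5% and 13.7% in somata, and 12.6% and 13.0% in neuropil. The lower isoforms held 10.6% and 9.70% in hippocampus, 18.2% and 18.4% in somata, and 19.6% and 20.3% in neuropil. The rule itself fixes the direction of these contrasts between hippocampus and CA1, so only their size is described. In the 6 whole brain libraries, which the rule did not use, the higher isoforms held from 15.4% to 18.5%. That span lies between their CA1 and their hippocampus shares. The lower isoforms held from 17.6% to 18.6% of the brain libraries, close to their share in somata.

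**Figure D2:**
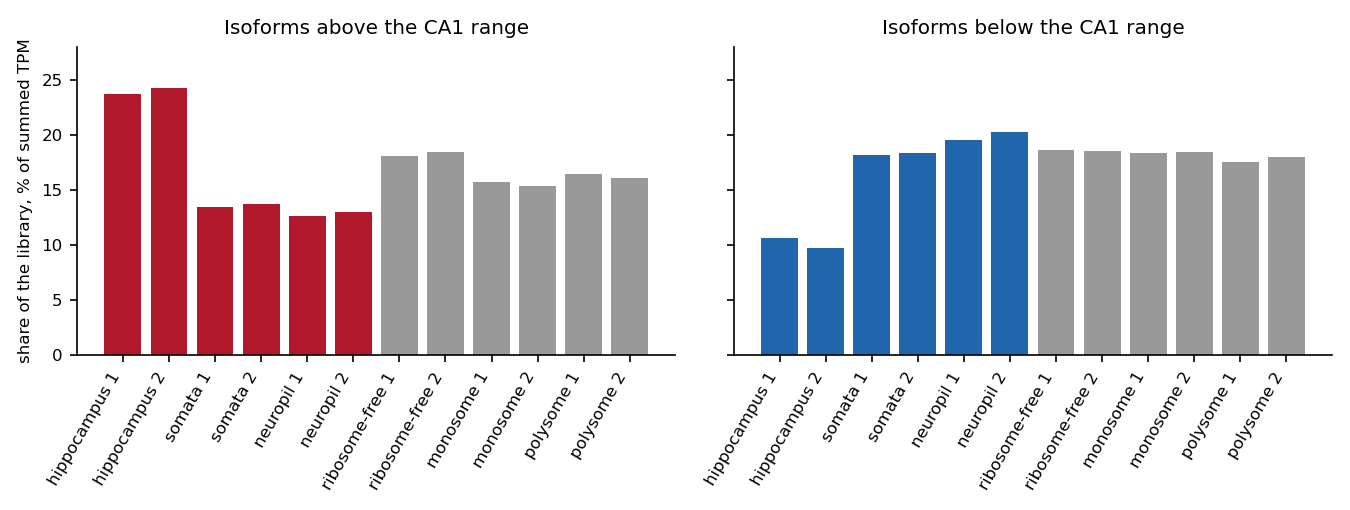
Share of each library's summed TPM (y axis, in percent, from 0) held by the 2963 isoforms above the CA1 range (left) and the 1837 below it (right), 1 bar for each of 12 libraries. Coloured bars are the 6 libraries that the rule used and grey bars the 6 brain fraction libraries, where the higher isoforms hold 15.4% to 18.5% and the lower ones 17.6% to 18.6%.

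Gene names could be given to a small part of the isoforms. The study's lists of isoforms with a gained or lost signal peptide or with an unannotated conserved open reading frame pair 551 isoforms with genes, and 543 were found in the tables. Of these, 483 isoforms of 355 genes passed the filter. Among them 63 (13.0%) were higher and 51 (10.6%) lower in hippocampus than in all 4 CA1 libraries, beside 13.3% and 8.24% of all isoforms. Without hippocampus replicate 1 these counts were 141 (29.2%) and 82 (17.0%), beside 7579 and 3219 of all 22103 isoforms then compared. Without replicate 2 they were 99 (20.5%) and 96 (19.9%), beside 4687 and 3714 of 21738. Lists chosen by signal peptides favour secreted and membrane proteins, so the kinds of protein named below reflect these lists too. The values below belong to these listed isoforms and not to the genes as a whole.

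Among the isoforms with a gene name, several of the clearest higher ones encode proteins of synapses and their receptors. A 2753-nt isoform of Neto1, an auxiliary subunit of kainate-type glutamate receptors, stood at 58.2 and 63.0 TPM in hippocampus, 4.62 and 6.08 in somata, and was listed at 0 in both neuropil libraries. The hippocampus libraries lay far above both layers. The difference of means was 4.61 on the log2(TPM + 1) scale with a pooled SD of 0.14, and the margin was 3.06. The pooled SD, here and below, combines the spread within hippocampus, within somata and within neuropil, and leaves out the gap between the layers. For Neto1 the neuropil values of 0 add no spread, and the isoform was chosen by its margin in these same values. In the brain fractions this isoform did not exceed 2.67 TPM.

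Synpr encodes synaptoporin, a synaptic vesicle protein known from mossy fibre terminals. Its 4960-nt isoform stood at 126 and 134 TPM in hippocampus, 33.3 and 29.9 in somata, and 20.1 and 37.5 in neuropil (difference 2.11, pooled SD 0.36, log2(TPM + 1) scale). Its 3427-nt isoform stood at 54.75 and 39.95 TPM, against 17.4 and 17.0 in somata and 28.5 and 16.8 in neuropil. Both isoforms were higher in hippocampus, and their sum was 181 and 174 TPM there against 46.8 to 54.3 in CA1. An isoform of Sv2a, a synaptic vesicle glycoprotein, stood at 23.63 and 22.01 TPM, against 4.94 and 6.43 in somata and 11.3 and 7.24 in neuropil.

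A 2740-nt isoform of Chgb, chromogranin B of secretory granules, was abundant in hippocampus, at 420 and 595 TPM. It stood at 251 and 262 TPM in somata and at 106 and 167 in neuropil, and was thus lowest in neuropil. An isoform of Lamp5, a membrane protein of a subset of interneurons, stood at 21.7 and 24.5 TPM in hippocampus. Its CA1 values split by replicate, with 2.46 and 13.6 TPM in somata and 2.53 and 14.7 in neuropil. An isoform of Slitrk1, a transmembrane protein of synapse formation, stood at 10.3 and 8.88 TPM in hippocampus and was listed at 0 in 3 of 4 CA1 libraries, with 5.15 TPM in neuropil replicate 2. An isoform of Lypd1, which encodes a lipid-anchored modulator of nicotinic receptors, stood at 88.6 and 71.3 TPM against 24.2 to 39.1 in CA1.

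Other named higher isoforms belong to lysosomal and endoplasmic reticulum proteins. A 2045-nt isoform of Ctsd, the lysosomal protease cathepsin D, stood at 197 and 218 TPM in hippocampus, 45.8 and 47.3 in somata, and 86.5 and 78.2 in neuropil (difference 1.73, pooled SD 0.09, log2(TPM + 1) scale). An isoform of Naaa, an acid amidase of lysosomes, stood at 8.38 and 14.5 TPM against 2.05 to 5.22 in CA1. An isoform of Dnajb11, a chaperone of the endoplasmic reticulum, stood at 97.3 and 113 TPM against 37.2 to 67.5. In each of these 3 the hippocampus libraries lay above every CA1 library, as the rule requires.

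For some higher isoforms the replicates of a group differed widely. The 4843-nt isoform of Gsn, the actin-severing protein gelsolin, stood at 44.0 and 86.8 TPM in hippocampus against 4.76 to 18.7 in CA1. An isoform of Tmem59l stood at 155 and 210 TPM, against 28.1 and 89.2 in somata and 30.4 and 57.9 in neuropil. Isoforms of Tmub1 and of the overlapping genes Dph1 and Ovca2 were listed at 0 in replicate 2 of both layers. In replicate 1 they lay between 4.64 and 8.82 TPM, below their hippocampus values of 15.7 and 19.1 TPM and of 9.45 and 19.1 TPM.

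The lower isoforms with the largest margins were listed at 0 in both hippocampus libraries. A 2438-nt isoform of Ncdn, the neuronal protein neurochondrin, stood at 144 and 164 TPM in somata and 80.7 and 184 in neuropil. A 1736-nt isoform of Tf, the iron carrier transferrin made by oligodendrocytes in brain, stood at 78.2 and 94.7 TPM in somata and 106 and 130 in neuropil. A 1212-nt isoform of Vtn, the adhesion protein vitronectin, stood at 7.41 and 8.56 TPM in somata and 24.6 and 31.7 in neuropil. All 3 were present in the 6 brain fraction libraries, at 36.0 to 76.4 TPM for Ncdn, 26.4 to 115 TPM for Tf and 4.14 to 15.3 TPM for Vtn.

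Isoforms of 3 proteins of neuronal signalling were lower without being listed at 0. All 3 listed isoforms of Gabbr1, a subunit of the metabotropic GABA receptor, were lower in hippocampus. The most abundant one, of 3611 nt, stood at 500 and 532 TPM in hippocampus, 627 and 639 in somata, and 724 and 739 in neuropil (difference −0.40, pooled SD 0.04, log2(TPM + 1) scale). Summed over the 3 isoforms, Gabbr1 stood at 714 and 755 TPM in hippocampus against 938 to 1151 in CA1. A 4440-nt isoform of Pde2a, a cyclic nucleotide phosphodiesterase, stood at 18.8 and 11.3 TPM in hippocampus, 74.5 and 68.1 in somata, and 46.0 and 31.3 in neuropil. Its 4053-nt isoform, chosen after its values were seen, was lower too, at 204 and 242 TPM against 244 to 324 in CA1. An isoform of Cd200, a neuronal surface glycoprotein that binds a receptor on myeloid cells, stood at 10.3 and 8.83 TPM against 18.0 to 40.6.

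Further lower isoforms encode proteins of other roles. An isoform of Sdf4, a calcium-binding protein of the secretory pathway, stood at 21.1 and 17.9 TPM in hippocampus, 96.2 and 84.0 in somata, and 71.8 and 121 in neuropil. An isoform of Mpped1 stood at 48.1 and 54.6 TPM in hippocampus, 227 and 203 in somata, and 80.8 and 185 in neuropil. It did not exceed 13.4 TPM in the brain fractions. An isoform of Adam9, a membrane metalloprotease, stood at 4.84 and 9.07 TPM against 13.5 to 26.2 in CA1. The margins of Mpped1 and Adam9 were −0.56 and −0.52 on the log2(TPM + 1) scale.

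**Figure D3:**
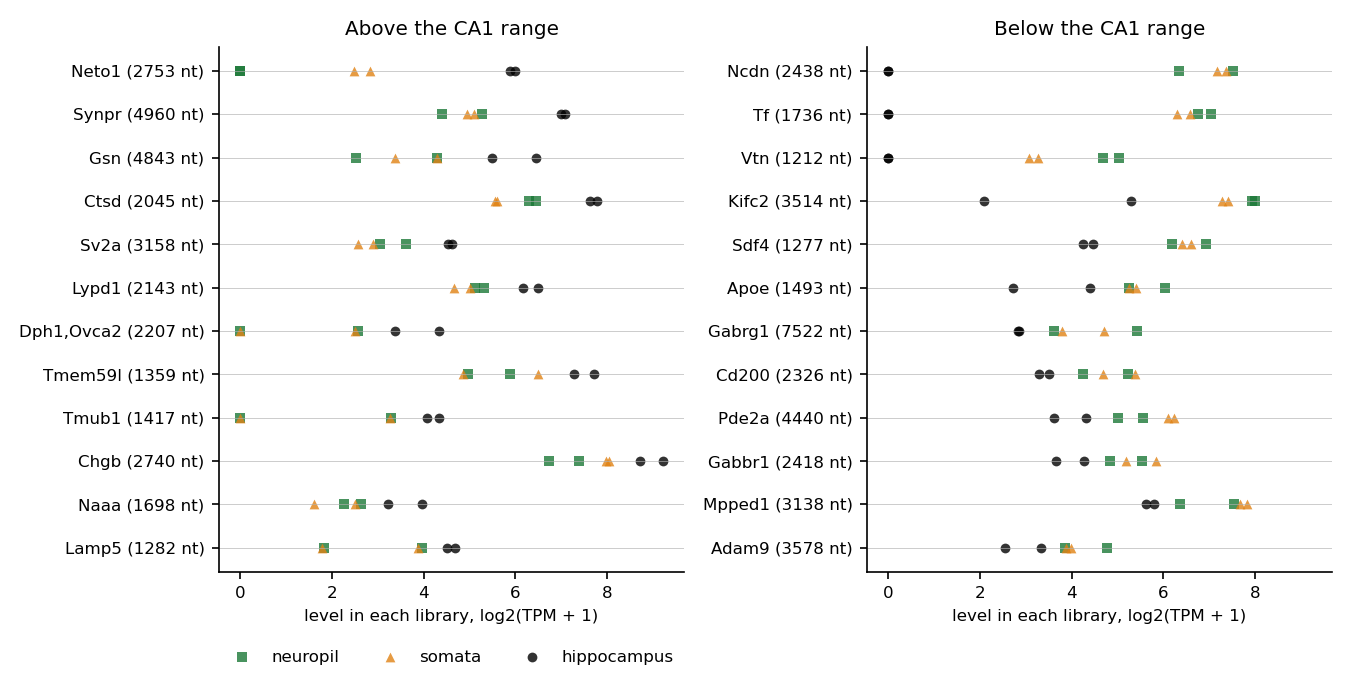
Level in each library, in log2(TPM + 1), of the 12 gene-paired isoforms with the largest margin above (left) and below (right) the CA1 range, among those with a mean of at least 10 TPM on their higher side. Black circles are hippocampus, orange triangles somata and green squares neuropil, 1 symbol a library (n = 2 for each); on the right, Ncdn, Tf and Vtn sit at 0 in hippocampus, and the remaining 9 have both circles left of all other symbols.

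At the limit of the range, the paired isoforms of Reep2 and Krtcap2 were just outside. Reep2 stood at 109 and 114 TPM in hippocampus with a highest CA1 value of 108.8, and Krtcap2 stood at 125 and 109 TPM with a lowest CA1 value of 124.8. Just inside were isoforms of Uxs1 and Slc39a12, both listed at 0 in both hippocampus libraries and in at least 1 CA1 library. Krtcap2 overlapped under all 3 other scalings of the libraries, Reep2 with median ratios and the Mrps27 isoform with quantile normalization. The other isoforms outside the range that were chosen by their margin stayed outside under all 3.

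Isoforms of 1 gene did not always lie on the same side. Of the 87 genes with several paired isoforms, 42 had at least 1 outside the range, and the sum over the gene's paired isoforms lay outside in 21 of these and overlapped in the other 21. In 3 more genes, Nnt, Smarca2 and Vopp1, the sum lay outside with no single isoform outside. Isoforms lay on opposite sides in 2 genes, Ctsd and Kifc2, whose second isoforms were chosen after their values were seen. For Kifc2, a kinesin motor gene, the 3514-nt isoform stood at 38.1 and 3.22 TPM in hippocampus, 155 and 168 in somata, and 253 and 243 in neuropil. The 3297-nt isoform stood at 132 and 250 TPM in hippocampus against 70.9 to 112 in CA1. Their sum, at 170 and 253 TPM in hippocampus and 239 to 356 in CA1, overlapped. For Ctsd, the 1925-nt isoform was lower in hippocampus, at 173 and 168 TPM against 190 to 260. The sum of both Ctsd isoforms was higher, at 370 and 386 TPM against 236 to 338.

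Lists of cell type markers and of functional groups were described by counts and medians, since the rule that set the higher and lower isoforms used the same libraries. The lists were also chosen with earlier results of these data known. Over all isoforms compared, 13.3% were higher and 8.24% lower. In the astrocyte list, 5 of 20 isoforms were lower in hippocampus and 0 higher, with a median difference of −0.58 on the log2(TPM + 1) scale beside 0.12 over all isoforms. The lower ones were isoforms of Apoe, the main lipid carrier of astrocytes, Bcan, the matrix proteoglycan brevican, Cldn10, Gabrg1 and Mfge8. Only 1 of 3 listed Gabrg1 isoforms was lower. Their sum overlapped, at 190 and 164 TPM in hippocampus against 155 to 248 in CA1. Apoe stood at 5.59 and 20.1 TPM in hippocampus, 37.3 and 41.4 in somata, and 36.9 and 65.1 in neuropil. Bcan stood at 216 and 200 TPM, 265 and 334 TPM, and 464 and 601 TPM in the same order. Both were below every CA1 library, as the rule requires, and Bcan was highest in neuropil. Without hippocampus replicate 1 the astrocyte counts were 7 lower and 2 higher, and without replicate 2 they were 8 and 0. With a margin of at least 1 they were 0 and 0, beside 408 lower and 587 higher of all 22289 isoforms.

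In the list of microglia and other myeloid cells, 1 of 9 isoforms (11.1%) was lower, a share near the 8.24% of all isoforms. It was that of C1qb, a chain of complement C1q. It stood at 67.1 and 55.9 TPM in hippocampus, 79.3 and 77.5 in somata, and 182 and 161 in neuropil. In the list of vessels and meninges, 2 of 17 (11.8%) were lower, again near the share of all isoforms. These were Vtn and Vcam1, the latter an adhesion molecule of endothelium. In the oligodendrocyte list of 6 isoforms, those of Tf and Apod were lower and 1 of 3 Gsn isoforms higher. Apod was just outside the range, at 21.91 and 27.74 TPM in hippocampus with a lowest CA1 value of 27.89. The 4 lists of non-neuronal cells added up to 10 lower (19.2%) and 1 higher (1.92%) of 52 isoforms, beside 8.24% and 13.3% of all, and 5 of the 10 were in the astrocyte list. Leaving out hippocampus replicate 1 gave 13 lower and 7 higher of these 52, and leaving out replicate 2 gave 15 and 2. A margin of at least 1 left 2 lower and 1 higher of them.

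The summed level of these 52 isoforms was 1503 and 1479 TPM in hippocampus, 1566 and 1647 in somata, and 2611 and 2887 in neuropil. The hippocampus sums thus lay below every CA1 library, though close to those of somata, and neuropil stood above both. The astrocyte sums were 810 and 763 TPM in hippocampus against 851 to 1798 in CA1. Those of the myeloid list were 95.9 and 88.5 TPM against 102 to 211. The sums of the vessel and oligodendrocyte lists overlapped in range. The median difference of neuropil and somata was between 0.49 and 0.80 on the log2(TPM + 1) scale in each of the 4 lists. With limma, no isoform in the whole table passed the adjusted threshold between the layers. The part of these cells in the differences of other isoforms was not tested.

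The 3 neuronal lists differed among themselves. In the list of receptors and channels, 3 of 16 isoforms were higher and 3 lower (18.8% each, beside 13.3% and 8.24% of all). In the list of secretory granules and synaptic vesicles, 5 of 17 (29.4%) were higher and 1 lower (5.88%). In the list of neuronal surface and adhesion proteins, 4 of 13 (30.8%) were higher and 1 lower (7.69%). Together, 12 of 46 (26.1%) were higher and 5 lower (10.9%, near the share of all isoforms), with a median difference of 0.34. Without hippocampus replicate 1 these counts were 20 (43.5%) and 7 (15.2%), beside 29.2% and 17.0% of all 483 paired isoforms. Without replicate 2 they were 14 (30.4%) and 9 (19.6%), beside 20.5% and 19.9%. The higher ones included Neto1, both Synpr isoforms, Chgb, Sv2a, Lamp5, Slitrk1 and Igsf8, and 3 of the 5 lower ones were Gabbr1 isoforms. The summed level of the receptors and channels was 1272 and 1325 TPM in hippocampus, below every CA1 library (1409 to 1474). That of the surface and adhesion proteins was 1024 and 1025 TPM, above every CA1 library (518 to 946). The granule and vesicle sums overlapped, at 5640 and 5816 TPM in hippocampus and 5658 to 6494 in CA1. Of the 46 isoforms in the 3 lists, a margin of at least 1 left 2 higher (4.35%) and 0 lower, beside 1.24% and 1.45% of all paired isoforms.

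Lists of cell organelles were mixed. In the lysosome list, 6 of 31 isoforms were higher (19.4%) and 4 lower (12.9%), beside 13.3% and 8.24% of all, with a median difference of −0.10. Isoforms of Naaa, Ctsd and Arsk, a sulfatase, were among the higher ones, whereas a Gnptg isoform was listed at 0 in both hippocampus libraries and stood at 4.20 to 13.2 TPM in CA1. In the list of protein folding and glycosylation in the endoplasmic reticulum, 5 of 28 were higher (17.9%) and 3 lower (10.7%), near the shares of all isoforms. In the mitochondrial list, 2 of 41 were higher, Ngrn and Mrps27, and 2 lower, Grsf1 and Ptpmt1, which is 4.88% in each direction and below the 13.3% and 8.24% of all isoforms. Ngrn, needed for mitochondrial ribosome assembly, stood at 75.1 and 110 TPM against 49.0 to 58.6 in CA1. Among 26 isoforms with an unannotated conserved open reading frame, 4 were higher (15.4%) and 5 lower (19.2%), beside 13.3% and 8.24% of all, the lower ones including Sdf4, Gpm6b and Smim29. Gpm6b, a proteolipid of neurons and glia, stood at 163 and 182 TPM in hippocampus, 213 and 230 in somata, and 276 and 379 in neuropil.

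The counts of the last 4 lists rested on both hippocampus libraries. Without replicate 1 the higher isoforms numbered 10, 7, 10 and 6 in the lists of lysosome, endoplasmic reticulum, mitochondrion and unannotated reading frames, and the lower ones 7, 4, 3 and 7. Without replicate 2 the higher ones numbered 8, 11, 5 and 5, and the lower ones 5, 4, 5 and 8.

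**Figure D4:**
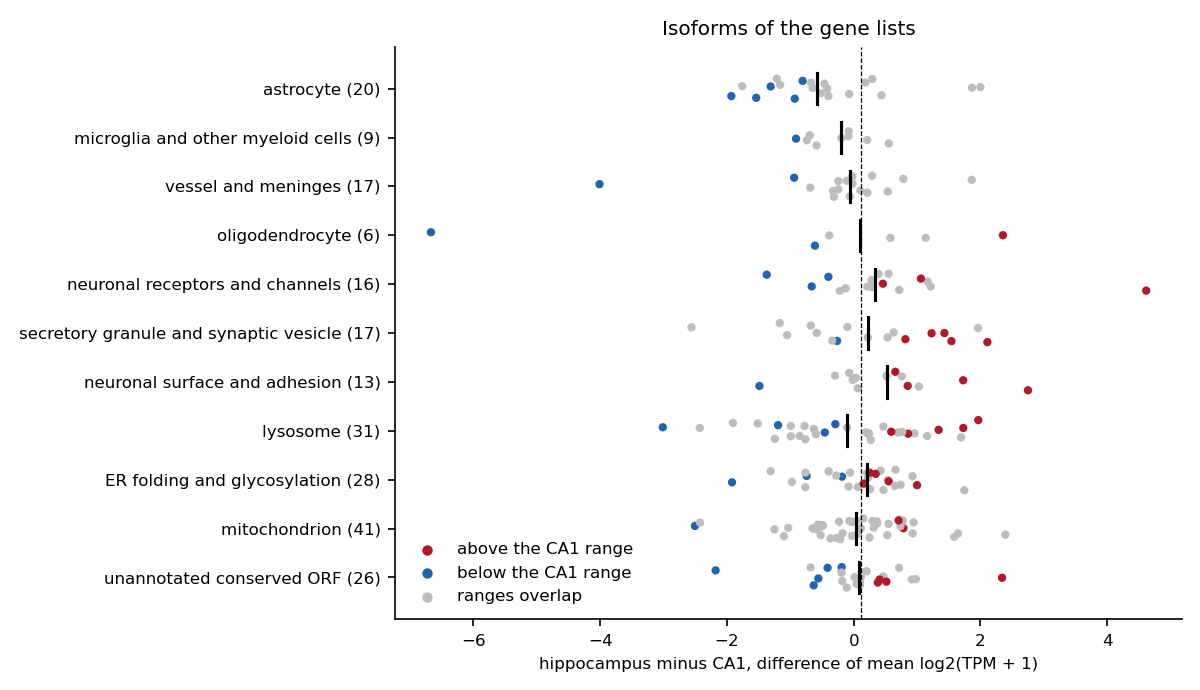
Difference of mean log2(TPM + 1), hippocampus minus CA1 (x axis), for each isoform of 11 gene lists (rows, number of isoforms in brackets). Red and blue points lie above and below the CA1 range and grey points overlap, black bars are list medians, and the dashed line is the median over all 22289 isoforms (0.12); the astrocyte bar lies at −0.58 and that of neuronal surface and adhesion at 0.52.

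Isoforms listed at 0 on one side were looked up in whole brain. Brain and hippocampus libraries differed in preparation as well as in tissue, so tissue and preparation cannot be told apart here. There were 331 higher isoforms (11.2%) listed at 0 in all 4 CA1 libraries and 209 lower isoforms (11.4%) listed at 0 in both hippocampus libraries. In the brain fractions, 126 (38.1%) of the former and 162 (77.5%) of the latter reached a mean of 1 TPM, beside 82.9% of all isoforms compared. Among those with a mean of at least 10 TPM on their own side, the shares were 33.9% of 109 and 87.4% of 95. Of the isoforms listed at 0 in CA1, 108 were listed at 0 in all 6 brain libraries as well, against 8 of those listed at 0 in hippocampus. Both sets passed the filter only through the side where they were high, and unequally. The former had to be above 0 in both hippocampus libraries, the latter in all 4 CA1 libraries. The gap between the sets can thus come partly from the rule, and these counts are given as a description. The largest margins of all belonged to isoforms without a gene name in the lists used. RNN_LD4.112_sub_9126_3783_3668_5338_1670_SUB0_pNAp_35 stood at 686 and 669 TPM in hippocampus and was listed at 0 in the other 10 libraries. RNN_LD1.104_ccs_156975_546_0_546_546_SUB0_uNAp_28 stood at 742 and 507 TPM, with 52.9 TPM in ribosome-free replicate 1 and 0 in the other 9. In the other direction, RNN_LD1.104_ccs_61779_1069_0_1069_1069_SUB1_pTNp_23 was listed at 0 in hippocampus, at 102.4 to 188 TPM in CA1 and at 7.55 to 141 TPM in the brain fractions. RNN_LD4.107_ccs_17793_1225_0_1225_1225_SUB0_pTNu_23 was listed at 0 in hippocampus, at 89.3 to 157 TPM in CA1 and at 35.7 to 97.1 TPM in the brain fractions.

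Length and level moved with the shares. The median length of the full-length read was 2298 nt for the higher isoforms, 2024 nt for the lower ones and 2244 nt for all compared. Up to 700 nt, 13.9% of 653 isoforms were lower and 11.5% higher. Between 2000 and 3000 nt, 7.34% of 7476 were lower and 13.3% higher, and above 4000 nt 7.80% of 1205 were lower and 16.3% higher. Abundant isoforms were more often outside the range. By the mean level in the 6 libraries of hippocampus and CA1, 9.48% of the isoforms from 1 to 5 TPM were higher and 3.47% lower, whereas from 100 TPM on 18.4% were higher and 16.8% lower. The median margin of the higher isoforms was 0.49 in the former range and 0.17 in the latter (log2(TPM + 1) scale). The part of length and library preparation in these shares was not tested.

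The 2 layers were compared within their own table with limma. Of 20393 isoforms tested, 0 were called between neuropil and somata at an adjusted p under 0.05, and 3024 (14.8%) had an unadjusted p under 0.05. The smallest limma adjusted p was 0.179. With 2 libraries for each layer, the absence of calls does not show that the layers are alike. By its own method, the paper reports isoforms enriched in either layer among neuronal genes with several isoforms. Among the 2354 higher isoforms tested, 108 (4.59%) had an unadjusted p under 0.05 with a higher level in neuropil and 162 (6.88%) with a higher level in somata, beside 7.57% and 7.26% of all tested. Among the 1837 lower isoforms, the counts were 213 (11.6%) and 126 (6.86%). Leaving out isoforms with equal means, among them the 331 higher ones listed at 0 in all 4 CA1 libraries, the neuropil mean exceeded the somata mean in 42.1% of the higher isoforms, 56.5% of the lower ones and 50.3% of all. Because a wide gap between the layers also widens the CA1 range, these counts are not independent of the rule and are given as a description.

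The polysome and ribosome-free fractions of whole brain offered a readout from libraries that the rule did not use. Of 19667 isoforms tested with limma, 34.1% were higher in the polysome fraction and 11.1% lower at an adjusted p under 0.05, and the median log2 fold change was 0.63. Of the isoforms higher in hippocampus, 2446 of 2963 could be tested, and 879 (35.9%) were higher and 291 (11.9%) lower in polysome, with a median of 0.58. Of the isoforms lower in hippocampus, 1728 of 1837 could be tested, and 851 (49.2%) were higher and 179 (10.4%) lower, with a median of 1.07. With quantile normalization, which brought the median over all isoforms to 0.09, the shares higher and lower in polysome were 20.5% and 17.6% of all, 20.7% and 19.4% of the isoforms higher in hippocampus, and 33.7% and 17.4% of those lower in hippocampus. Without polysome replicate 1, 4346 of all isoforms and 584 of those higher in hippocampus were called higher in polysome, and without replicate 2 they were 4296 and 598.

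Brain levels differed between these sets of isoforms. The median over the 6 brain libraries was 9.60 TPM for the isoforms higher in hippocampus and 22.9 TPM for the lower ones. Within ranges of that level, the share called higher in polysome was 15.7% of all isoforms, 15.8% of the higher and 24.0% of the lower ones from 1 to 10 TPM. From 10 to 50 TPM it was 48.0%, 42.6% and 56.8%. From 50 TPM on it was 61.4%, 61.8% and 62.3%, so the shares were close to each other there. With quantile normalization the shares from 50 TPM on were 41.7%, 39.9% and 47.6%. These ranges were chosen after seeing the data.

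**Figure D5:**
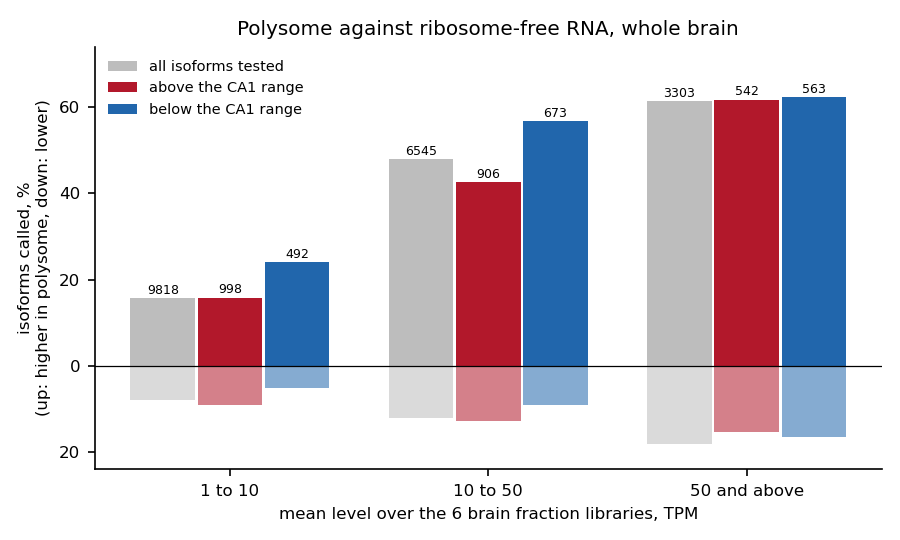
Share of isoforms (y axis, in percent) called by limma higher (bars up) or lower (pale bars down) in the polysome than in the ribosome-free fraction of whole brain, by mean level over the 6 fraction libraries (x axis, TPM). Grey is all isoforms tested, red those above and blue those below the CA1 range, with the number tested above each bar; the blue bars reach 24.0%, 56.8% and 62.3%, against 15.7%, 48.0% and 61.4% for the grey ones.

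Of the 22 named higher isoforms, 9 passed the polysome test, 8 of them with a higher level in polysome. Those of Neto1 and of Dph1 and Ovca2 were not tested, as their brain mean was under 1 TPM. Of the 27 named lower isoforms, 17 passed, 14 with a higher level. Over all isoforms tested, 34.1% were higher and 11.1% lower in polysome. Under quantile normalization and median ratios as well, the calls held for 4 and 1 of the higher isoforms and for 11 and 3 of the lower ones, with more and less in polysome. The 2805-nt Gabbr1 isoform stood at 4.54 and 12.04 TPM in the ribosome-free fraction, 460 and 392 in monosome, and 454 and 531 in polysome. Its log2 fold change of polysome against ribosome-free was 5.86 (SE 0.41, limma adjusted p = 0.000503). Sdf4 rose from 38.0 and 44.6 TPM to 200.5 and 183, by 2.19 (SE 0.14, limma adjusted p = 0.00044). Tmem59l rose from 10.1 and 11.1 TPM to 63.3 and 69.3, by 2.54 (SE 0.15, limma adjusted p = 0.000348). All 3 passed under both other scalings.

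Fewer named isoforms were lower in polysome. Adam9 stood at 15.2 and 22.3 TPM in the ribosome-free fraction and at 0 and 0.73 in polysome, a log2 fold change of −3.88 (SE 0.48, limma adjusted p = 0.0024). Gpm6b stood at 191 and 177 TPM against 46.3 and 46.6, a change of −1.96 (SE 0.18, limma adjusted p = 0.00104). Smim29 and Ngrn changed by −0.93 and −1.10, with limma adjusted p of 0.00484 and 0.0123. In these 4 the 2 polysome libraries lay below both ribosome-free libraries. Ncdn, with a change of 0.48, passed in TPM as deposited (limma adjusted p = 0.0473) and took the opposite sign, −0.25, with quantile normalization.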

How the data were processed

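Illumina RNA sequencing data of 12 libraries in 6 groups (n = 2 for each) were used. The 6 ribosome footprinting libraries were not analysed here. The deposited values are TPM, which the authors made with RSEM and its Bowtie 2 mapping of flexbar-trimmed reads to the full-length transcripts, in 3 tables written to 2 decimals without pooling replicates. The submitters' processing notes name RSEM, TopHat2 and rn6. The RSEM version is not given in the sources used here. Hippocampus libraries are described as single-end, whereas the stated RSEM argument is for paired-end reads, and how this touched the TPM is not known. TPM keep no depth, so no counting intervals were computed.

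Tables were joined on the isoform identifier. Hippocampus and CA1 were compared by range alone. Neuropil against somata, and polysome against ribosome-free (over all 3 fractions), were tested within a table with limma 3.58.1 in R 4.3.3 (lmFit, eBayes with trend) on log2(TPM + 1) for isoforms whose mean reached 1 TPM. Tests were two-sided, and a Benjamini-Hochberg adjusted p under 0.05 counted as a call. Fold changes on this scale understate those of low isoforms. Scripts used Python 3.11.15, pandas 2.3.3, numpy 2.4.6 and matplotlib 3.10.9, and were tested on simulated data.

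Isoforms and 11 gene lists were chosen with earlier results of these data known. Gene names come from the study's supplementary lists: 8 of 551 identifiers matched no isoform. Named were the 12 paired isoforms with the largest margin in each direction at a mean of at least 10 TPM, up to 4 in each gene list, 2 just outside and 2 just inside the range, and 2 in each direction without a gene. Alternatives changed the filter, scaling, pseudocount, prior variance, margin, replicate term and libraries. No isoform sequence was used here.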

Additional observations from a re-analysis of the deposited data

How the results depend on the processing

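The hippocampus and CA1 counts of 2963 higher and 1837 lower isoforms moved with the margin, the libraries that set the range and the treatment of zeros. Against the somata libraries alone they were 5517 and 4271, and against neuropil alone 5280 and 4197, since 2 libraries span less than 4. A margin of at least 1 left 587 and 408, and 1771 higher isoforms were above 0 in all 6 libraries. Leaving out 1 library gave 3542 to 7579 higher and 2347 to 3714 lower isoforms. The largest moves came without hippocampus replicate 1 (7579 and 3219) and replicate 2 (4687 and 3714). Fewer libraries make the rule easier to pass, most of all a lone hippocampus library, so such rises are partly set by the rule. Filters on the mean TPM and scalings kept both counts within 1.5 times, with 2600 higher and 2138 lower under quantile normalization. Under all 3 other scalings, 2309 (77.9%) of the higher and 1698 (92.4%) of the lower isoforms remained outside the range. Of 612 values of 51 named isoforms under 12 settings, 110 moved by more than the spread between replicates and none changed sign. Neuropil against somata had 0 calls under each alternative.

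For polysome against ribosome-free, median ratios and quantile normalization gave 4173 and 4039 isoforms higher and 3502 and 3454 lower in polysome. Among isoforms higher in hippocampus these scalings gave 517 and 506 higher and 487 and 474 lower, and among those lower in hippocampus 308 and 300 lower in polysome. Leaving out 1 library, a lone library being assumed to vary like the other groups, gave 5856 calls without polysome replicate 2 and 5871 without replicate 1. Over all libraries left out in turn, the range of calls was 5856 to 8563, that of isoforms higher in polysome 4296 to 6618 and that of isoforms higher in hippocampus and in polysome 584 to 890. Equal replicate numbers did not pair the samples (correlations of replicate deviations from −0.018 to 0.031). With the replicate block, 6230 isoforms were higher and 1965 lower in polysome. Among those higher in hippocampus the counts were 831 and 264, and among those lower 810 and 166. Between the layers 0 were called with the block, and 2699 had an unadjusted limma p under 0.05. The polysome call of Ncdn was lost with the block (limma adjusted p = 0.085).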
